A study of Homo sapiens with 12 samples.

Results

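Transcript levels of the genes that flank EMC10 on the long arm of chromosome 19 were examined in A172 cells, an established line from a human glioblastoma, with and without overexpressed hHSS1, the protein of EMC10. The genes were chosen by position, as a list of 33 genes of band 19q13.3 around EMC10 with EMC10 itself left out, and for each gene the probe set with a single gene symbol was to be selected on the highest mean over the 12 arrays. Such a probe set was found for 28 of the 33 genes, of 18417 genes measured in all and 1308 on chromosome 19. Each of the 28 had 1 probe set, so that the mean level decided no choice. FAM71E1 was found under its present symbol, GARIN5A. RPL13A, IL4I1 and NUP62 had only probe sets shared between several symbols, and MED25 and NR1H2 had no probe set listed under their symbols; these 5 genes were not tested.

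The 12 arrays (GeneChip Human Gene 1.0 ST) fell into 4 groups of 3. These were wild-type A172 cells, a mock line stably carrying the empty pcDNA3.1 vector, and the stable clones 7 and 8, which carry pcDNA3.1 with a His-tagged hHSS1 sequence. All were harvested after 4 days of culture. The mock line and the clones were kept in G-418, and the wild-type cells have no vector. Each of the 4 is 1 line, so that the p-values measure the spread between cultures of single lines and not between lines made independently. A value of both clones is the mean of clones 7 and 8 with equal weight. The vector sits wherever it was integrated, and its transcript and that of the cell's own EMC10 are read by the same probe set.

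The product of EMC10 belongs to a membrane protein insertase of the endoplasmic reticulum, the EMC, and also occurs in a secreted form. The stretch of chromosome 19 around it is dense in genes of unrelated function, many of them expressed in most tissues. Among them are a Ras-related GTPase (RRAS), the main protein arginine methyltransferase (PRMT1), an inhibitory subunit of the growth-controlling kinase complex mTORC1 (AKT1S1) and the interferon factor IRF3, and, near EMC10, genes known mostly from muscle, lung, brain or B cells. The clones received EMC10 on a vector, and the comparison asks whether transcripts of the genes around its native place differed too.

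Promoter windows from RefSeq (GRCh38.p14, 250 bases before the start of a gene to 50 after) were found for 21 of the 28 genes, 30 windows in all. The bases before the start are printed 5′ to 3′ for EMC10, as the reference of the region, and for SCAF1, PRMT1 and VRK3, the 3 that have a window among the 6 genes found higher in the clones below. Capitals mark GC boxes, that is, GGGCGG or its reverse complement CCGCCC, overlapping matches included. The stretch before EMC10 is chr19:50476257-50476506 (plus strand), SCAF1 at chr19:49641959-49642208 (plus), PRMT1 at chr19:49677021-49677270 (plus) and VRK3 at chr19:50025373-50025622 (minus).
EMC10: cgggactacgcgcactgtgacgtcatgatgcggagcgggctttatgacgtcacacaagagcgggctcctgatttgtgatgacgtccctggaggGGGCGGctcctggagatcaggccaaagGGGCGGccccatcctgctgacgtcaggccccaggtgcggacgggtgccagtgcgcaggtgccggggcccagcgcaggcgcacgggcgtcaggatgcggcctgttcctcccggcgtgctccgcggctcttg
SCAF1: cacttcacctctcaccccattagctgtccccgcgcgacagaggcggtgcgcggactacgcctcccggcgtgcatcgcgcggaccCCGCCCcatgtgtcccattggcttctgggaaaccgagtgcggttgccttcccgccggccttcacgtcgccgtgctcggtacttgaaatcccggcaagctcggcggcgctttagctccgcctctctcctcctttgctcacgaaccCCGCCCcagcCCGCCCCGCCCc
PRMT1: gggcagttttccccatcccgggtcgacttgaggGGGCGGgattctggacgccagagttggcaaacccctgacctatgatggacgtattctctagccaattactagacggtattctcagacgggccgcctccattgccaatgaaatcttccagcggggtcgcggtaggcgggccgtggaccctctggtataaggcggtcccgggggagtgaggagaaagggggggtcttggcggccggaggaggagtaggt
VRK3: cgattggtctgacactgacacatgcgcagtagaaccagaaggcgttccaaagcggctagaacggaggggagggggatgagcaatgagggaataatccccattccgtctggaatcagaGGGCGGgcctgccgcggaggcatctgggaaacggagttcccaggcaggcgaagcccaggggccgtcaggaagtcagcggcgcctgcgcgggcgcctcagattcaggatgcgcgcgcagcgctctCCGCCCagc
The printed stretches held 2 GC boxes before EMC10, 4 before SCAF1, 1 before PRMT1 and 2 before VRK3. Over whole windows of 300 bases, a GC box was in 21 of the 30 windows of the flanking genes (70.0%) and in 45.0% of all 35116 windows. A CCAAT box (CCAAT or ATTGG) was in 33.3% of their windows and 34.6% of all, a TATA box (TATAAA or TTTATA) in 3.33% and 11.5%, and an ETS core (CCGGAA or TTCCGG) in 16.7% and 17.2%. The median number of CG dinucleotides was 18 in their windows and 14 in all. These are matches of letters in a window and say nothing of binding.

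Values throughout are log2 levels per probe set as the authors deposited them, or log2 differences between groups from limma (± SE). Two-sided p-values were adjusted over the 18417 genes of a comparison. Array medians over all probe sets lay between 8.60 and 8.67. The third culture of clone 8 had the highest median deviations of all arrays: the median gene lay 0.05 above its own mean over all arrays there, the median of the 1279 other genes of chromosome 19 lay 0.09 above, and that of the flanking genes 0.16 above. Counts of calls and medians over the 28 genes that change without it are given without it too. The first culture of clone 8 had the narrowest distribution, with an interquartile range of 3.13 over all probe sets against 3.25 to 3.36 on the others. On it the 10 flanking genes below the median signal of all genes had a median deviation of 0.20, and the brighter ones -0.006. Of 11 astroglial and glioma markers, VIM (13.60), CD44 (13.43) and NES (9.39) had a mean signal above the median of all genes (9.21), while GFAP (8.71), SOX2 (8.54), OLIG2 (8.35), S100B (6.34) and AQP4 (6.20) did not. Of the 11, 2 were lower in both clones than in mock by the adjusted p, NES, an intermediate filament gene of neural stem cells (log2 -0.73 ± 0.06, limma adjusted p = 5.9e-05), and SOX2, a stem cell factor (-0.32 ± 0.08, adjusted p = 0.0285). NES was also lower in mock than in wild-type (-0.44 ± 0.07, adjusted p = 0.00723). The log2 of the summed level of the 11 markers ran from 14.64 to 14.69 in wild-type cells, 14.70 to 14.75 in mock, 14.66 to 14.70 in clone 7 and 14.64 to 14.70 in clone 8, and its part in the differences below was not tested. Of the markers of other tissues, 0 of 5 leukocyte, 0 of 2 endothelial, 0 of 3 testis and 0 of 2 lung genes were above that median, while 1 of 3 muscle genes (ACTA1) and 1 of 3 epithelial genes (KRT18, 13.67) were.

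EMC10 itself read 11.13, 10.43 and 10.69 in wild-type cells, 9.20, 9.33 and 9.51 in mock, 11.57, 11.72 and 12.30 in clone 7, and 12.13, 12.18 and 11.75 in clone 8. The mock arrays were the lowest and the clone arrays the highest, with no overlap between mock, wild-type and clones. Mock lay below wild-type (log2 -1.40 ± 0.20, limma adjusted p = 0.00285) and both clones above mock (2.59 ± 0.18, adjusted p = 7.8e-06). The 28 flanking genes differed less, by -0.45 to 0.11 in mock against wild-type and -0.06 to 0.38 in both clones against mock. When 1.5-fold was required together with an adjusted p under 0.05, 0 of 28 passed in mock against wild-type (0.673% of all genes passed), 0 in both clones against mock (0.728%), 0 in both clones against wild-type (1.58%) and 0 in clone 8 against clone 7 (0.0%) by limma. At an unadjusted p under 0.05 the counts were 13, 14, 2 and 3 of 28, against 12.1%, 20.0%, 25.1% and 7.21% of all genes. The 95% intervals of the differences stayed within 1.5-fold (0.58 on the log2 scale) for 26 of the 28 genes in mock against wild-type, the exceptions being RRAS and LRRC4B. They did so for 26 in both clones against mock, the exceptions being RRAS and TBC1D17, whose intervals reached 0.61 and 0.59, and for all 28 in both clones against wild-type and in clone 8 against clone 7.

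By the adjusted p alone, 6 of the 28 flanking genes were higher in both clones than in mock and 0 were lower. The arrays read a culture as a whole, so that less RNA per cell and fewer cells with the transcript cannot be told apart. The 6 were RRAS, SCAF1, PRMT1, AKT1S1, TBC1D17 and VRK3, with log2 differences from 0.19 to 0.38. Over all genes this limit called 6.38%, and 2.87% as higher. In mock against wild-type, 1 of 28 was called, PRR12, which was lower in mock (all genes: 2.24% called, 1.24% lower). In both clones against wild-type 0 of 28 passed (9.95% of all genes), and in clone 8 against clone 7 also 0 (0.0%). Both comparisons with mock share the same 3 mock arrays, so that a level that is low in mock counts in each, and they are not independent of each other. The 6 calls were sensitive to the mock arrays: without mock replicate 1 or 2 only VRK3 passed, and without mock replicate 3 none did. Without clone 7 replicate 1 they were 2 (SCAF1 and VRK3), without clone 7 replicate 2 only VRK3, without any 1 wild-type array 3 (AKT1S1, SCAF1 and VRK3), and without clone 8 replicate 3 they were 5 (all but PRMT1). The call on PRR12 was lost without any 1 of the wild-type or mock arrays and without clone 7 replicate 1 or 2. Without clone 7 replicate 3 there were 2 calls, PRR12 and RRAS, and without clone 8 replicate 3 there were 4 calls, LRRC4B, PRR12, RRAS and TBC1D17, all lower in mock. The share of all genes called was not taken without single arrays.

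The direction was shared more widely than the calls. Both clones had a higher mean than mock in 26 of 28 genes, the exceptions being FUZ and PRRG2, while 53.7% of all genes were higher. The mock mean was below wild-type in 22 of 28, against 43.1% of all genes. The median log2 difference of the 28 genes was 0.13 in both clones against mock, where it was 0.01 over all genes and 0.04 over the other genes of chromosome 19. In mock against wild-type it was -0.10, against 0.02 and -0.005. In both clones against wild-type it was 0.03, as it was over all genes, with 17 of 28 higher. This last direction turned without clone 8 replicate 3, where the median was -0.01, 12 of 28 were higher and 1 was called, LRRC4B, lower in the clones. Without clone 8 replicate 3 the median in both clones against mock was 0.11, with 25 of 28 higher.

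**Figure D1:**
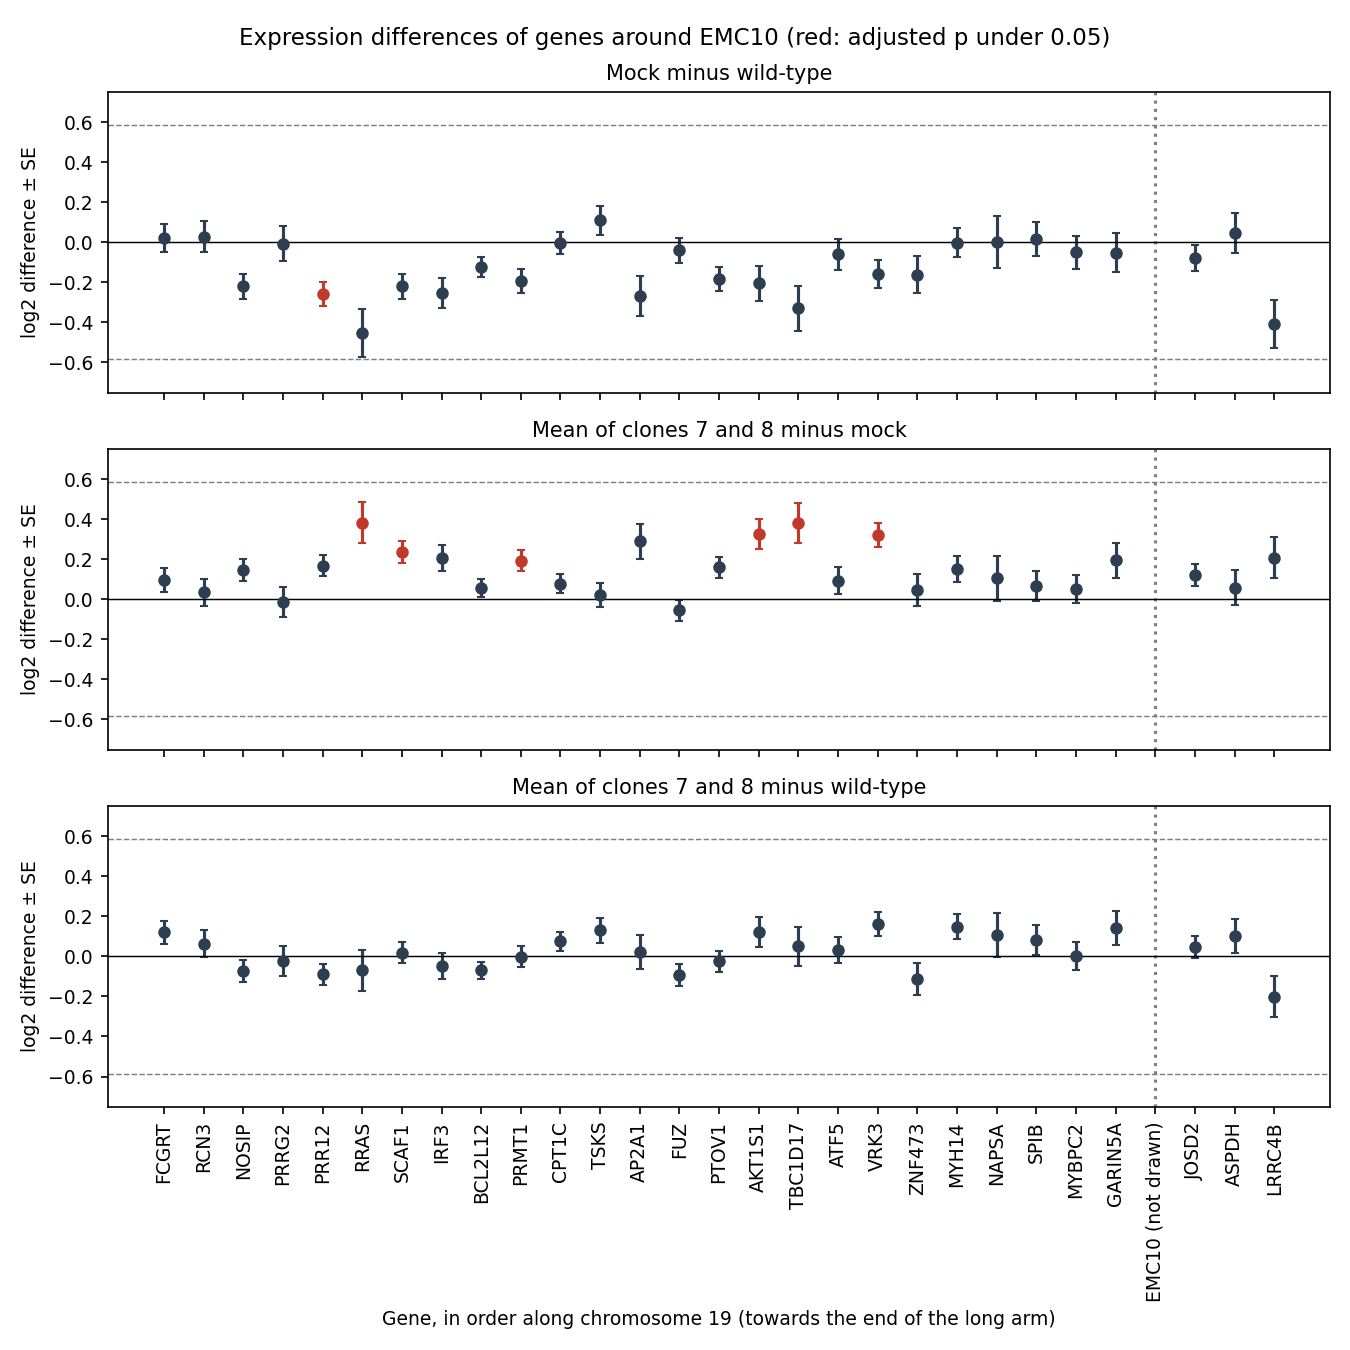
Log2 difference ± SE (vertical axes) of the 28 genes in their order on chromosome 19 (horizontal axis) for mock minus wild-type, both clones minus mock and both clones minus wild-type. The dotted line marks EMC10, whose values (-1.40, 2.59 and 1.19) are off the scale; dashed lines mark 1.5-fold, and red points passed an adjusted p under 0.05. GARIN5A and JOSD2, beside EMC10, lie at 0.19 and 0.12 in the middle panel, and the 6 red points of the middle panel lie between RRAS and VRK3.

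The nearest genes were examined first, in the order of the RefSeq gene table. GARIN5A, the coding gene next to EMC10 on the centromere side and a member of a family of Golgi-associated RAB2 interactors, read 8.00, 7.71 and 7.87 in wild-type cells, 7.62, 7.86 and 7.94 in mock, 7.94, 7.90 and 7.90 in clone 7, and 8.24, 7.96 and 8.08 in clone 8. The groups overlapped. It differed by 0.19 ± 0.09 between both clones and mock (adjusted p = 0.227) and by -0.05 ± 0.10 between mock and wild-type. JOSD2, the next coding gene on the other side, encodes a deubiquitinating enzyme and read 10.01, 9.90 and 9.94 in wild-type cells, 9.90, 9.88 and 9.84 in mock, 9.96, 10.03 and 10.05 in clone 7, and 10.04, 9.86 and 10.04 in clone 8. Its 3 mock arrays were below the 3 wild-type arrays by little, and clone 8 replicate 2 fell within the mock range. Both clones differed from mock by 0.12 ± 0.06 (adjusted p = 0.241).

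MYBPC2, a myosin-binding protein of fast skeletal muscle, read 7.73, 7.70 and 7.60 in wild-type cells, 7.60, 7.68 and 7.60 in mock, 7.67, 7.44 and 7.59 in clone 7, and 7.88, 7.63 and 7.87 in clone 8. These signals were near the lower quartile of all genes (7.80), where signal and background could not be told apart, and the groups overlapped. SPIB, an Ets factor of B cells, read 8.39, 8.29 and 8.25 in wild-type cells, 8.29, 8.41 and 8.29 in mock, 8.36, 8.27 and 8.33 in clone 7, and 8.59, 8.25 and 8.56 in clone 8. NAPSA, an aspartic protease of lung and kidney, read 8.09, 7.82 and 7.77 in wild-type cells, 7.94, 7.87 and 7.88 in mock, 7.96, 7.96 and 7.96 in clone 7, and 8.24, 7.68 and 8.20 in clone 8. In both genes clone 8 alone spanned nearly the range of all 12 arrays, and clones against mock gave 0.06 ± 0.08 for SPIB, 0.10 ± 0.11 for NAPSA and 0.05 ± 0.07 for MYBPC2.

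ASPDH, which encodes a protein with an aspartate dehydrogenase domain, read 8.42, 8.41 and 8.41 in wild-type cells, 8.45, 8.51 and 8.42 in mock, 8.47, 8.31 and 8.56 in clone 7, and 8.80, 8.35 and 8.61 in clone 8. The wild-type arrays agreed closely, and the clone arrays lay on both sides of them. LRRC4B, a synaptic adhesion protein, read 11.49, 11.61 and 11.56 in wild-type cells, 11.29, 11.14 and 11.02 in mock, 11.39, 11.41 and 11.30 in clone 7, and 11.12, 11.24 and 11.67 in clone 8. Every mock array was below every wild-type array. The clone 7 arrays lay between them without overlap, by little from mock, and the clone 8 arrays overlapped with both. The difference was -0.41 ± 0.12 in mock against wild-type (adjusted p = 0.118) and 0.21 ± 0.10 in both clones against mock (adjusted p = 0.293).

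In both comparisons with mock, the median difference was smaller near EMC10 than farther away. The 9 genes within 10 coding genes of EMC10 (ZNF473, MYH14, NAPSA, SPIB, MYBPC2, GARIN5A, JOSD2, ASPDH and LRRC4B) had median differences of -0.05 in mock against wild-type and 0.10 in both clones against mock, with 0 calls in either. The 19 farther genes had medians of -0.18 and 0.16. The near genes had the larger median in both clones against wild-type (0.08 against 0.02) and in clone 8 against clone 7 (0.08 against 0.03). Medians of the near and the farther genes were not taken without single arrays. The 6 genes higher in the clones lay from 11 (VRK3) to 31 (RRAS) coding genes away from EMC10. The 2 sets also differ in signal, as described further on.

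Of the 7 genes of signalling, survival and protein turnover, 4 were higher in both clones than in mock by the adjusted p, and all 7 had a positive difference (median 0.32). RRAS, a small GTPase related to the Ras oncogenes that acts in adhesion, read 13.53, 13.44 and 13.57 in wild-type cells, 13.14, 13.06 and 12.99 in mock, 13.63, 13.69 and 13.27 in clone 7, and 13.19, 13.30 and 13.60 in clone 8. Mock was the lowest group without overlap, while clones 7 and 8 each had arrays above and below the range of wild-type. The difference was 0.38 ± 0.10 in both clones against mock (limma adjusted p = 0.0455) and -0.45 ± 0.12 in mock against wild-type (adjusted p = 0.0773). TBC1D17, a GTPase-activating protein for Rab proteins of membrane traffic, read 10.98, 11.09 and 11.07 in wild-type cells, 10.76, 10.66 and 10.72 in mock, 11.20, 11.26 and 10.96 in clone 7, and 10.86, 10.95 and 11.35 in clone 8. It showed the same order, with mock lowest and the arrays of each clone spread around wild-type. Its differences were 0.38 ± 0.10 (adjusted p = 0.0395) and -0.33 ± 0.11 (adjusted p = 0.208).

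AKT1S1, which encodes PRAS40, a target of AKT and an inhibitory part of mTORC1, read 11.34, 11.27 and 11.39 in wild-type cells, 11.19, 11.12 and 11.07 in mock, 11.47, 11.48 and 11.37 in clone 7, and 11.42, 11.31 and 11.68 in clone 8. All clone arrays were above all mock arrays, and clone 8 replicate 3 was the highest of all. The difference from mock was 0.33 ± 0.07 (adjusted p = 0.0230). VRK3, a pseudokinase of the vaccinia-related kinase family that is known to regulate a phosphatase of ERK, read 10.52, 10.54 and 10.60 in wild-type cells, 10.47, 10.42 and 10.30 in mock, 10.78, 10.73 and 10.70 in clone 7, and 10.64, 10.62 and 10.82 in clone 8. The 6 clone arrays were above all 6 others and the 3 mock arrays below all others. VRK3 was higher in both clones by 0.32 ± 0.06 (adjusted p = 0.00884), and by 0.16 ± 0.06 against wild-type, which did not pass (adjusted p = 0.122).

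The calls varied least for VRK3, whose limma adjusted p was under 0.05 in 19 of 20 settings (0.00327 to 0.0657). These settings are the reported one, alternatives of processing, and the removal of each array in turn, which makes up most of them. The mean of a gene's probe sets could not alter the values of these genes, since each has only 1. SCAF1 and AKT1S1 passed in 14, RRAS and TBC1D17 in 10 and PRMT1 in 8. The other 3 genes of the group were not called as reported, and of these NOSIP passed in 1 setting, after quantile normalization. NOSIP, an ubiquitin ligase that binds nitric oxide synthases, differed by 0.14 ± 0.05, BCL2L12, a relative of the BCL2 family described in glioblastoma, by 0.06 ± 0.04, and JOSD2 by 0.12 as above.

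**Figure D2:**
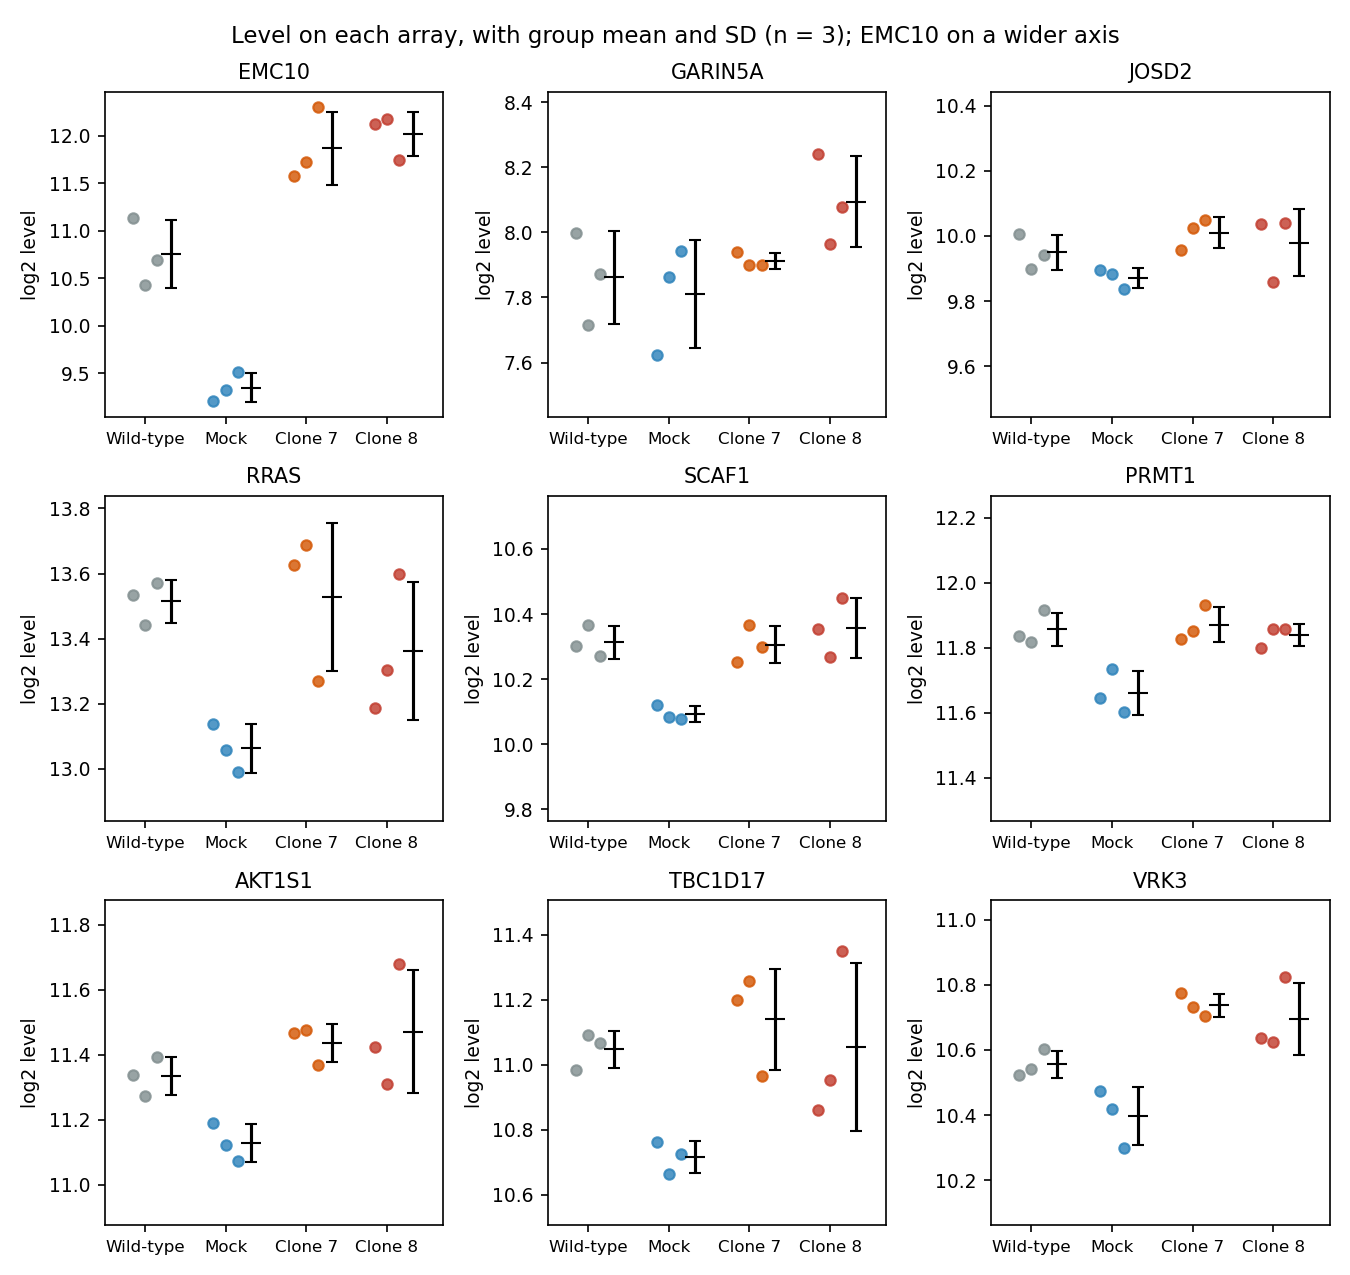
Log2 level (vertical axes) on each of the 12 arrays for EMC10, its neighbours GARIN5A and JOSD2 and the 6 genes higher in the clones, by line (horizontal axes); bars give the group mean and SD (n = 3). The axes span 1 log2 unit except for EMC10. Mock is lowest in the 6 genes, and clone 8 replicate 3 is the highest array of AKT1S1, TBC1D17, SCAF1 and VRK3.

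Among the 5 RNA and nuclear factors, 2 were called higher in the clones and 1 lower in mock. SCAF1, an SR-related protein that binds the tail of RNA polymerase II, read 10.30, 10.37 and 10.27 in wild-type cells, 10.12, 10.08 and 10.08 in mock, 10.25, 10.37 and 10.30 in clone 7, and 10.35, 10.27 and 10.45 in clone 8. The mock arrays were tightly grouped below all 9 others. Both clones differed from mock by 0.24 ± 0.05 (adjusted p = 0.0223), and by 0.02 ± 0.05 from wild-type. PRMT1, which places asymmetric dimethylarginine on histones and RNA-binding proteins, read 11.84, 11.82 and 11.92 in wild-type cells, 11.65, 11.74 and 11.60 in mock, 11.83, 11.85 and 11.93 in clone 7, and 11.80, 11.86 and 11.86 in clone 8. Mock was again lowest, and both clones differed from it by 0.19 ± 0.05 (adjusted p = 0.0454). PRR12, a proline-rich nuclear protein, read 10.80, 10.89 and 10.84 in wild-type cells, 10.66, 10.52 and 10.58 in mock, 10.61, 10.66 and 10.74 in clone 7, and 10.84, 10.82 and 10.84 in clone 8.

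PRR12 was lower in mock than in wild-type by limma (log2 -0.26 ± 0.06, adjusted p = 0.0442), with no overlap. Its clone 7 arrays lay near mock and its clone 8 arrays near wild-type. The difference between the clones was 0.16 ± 0.06 and did not pass (adjusted p = 0.620). PTOV1, first described as overexpressed in prostate tumours, differed by 0.16 ± 0.05 in both clones against mock (adjusted p = 0.0983), and ZNF473, a zinc finger protein of histone pre-mRNA processing, by 0.05 ± 0.08.

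None of the 3 DNA-binding factors was called. IRF3, which switches on interferon genes after viral sensing, differed by 0.21 ± 0.07 in both clones against mock (adjusted p = 0.0932) and by -0.25 ± 0.08 in mock against wild-type (adjusted p = 0.133). ATF5, a stress-response factor studied in glioma survival, differed by 0.09 ± 0.07 and -0.06 ± 0.08, and SPIB by 0.06 and 0.02. The group means of IRF3 were the lowest in mock, and its clone arrays, from 10.25 to 10.56, were all above its mock arrays, from 10.14 to 10.24.

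None of the 6 genes of membranes, the secretory pathway and the cilium was called either. AP2A1, a large subunit of the AP-2 clathrin adaptor of endocytosis, read 12.04, 12.10 and 12.06 in wild-type cells, 11.89, 11.81 and 11.70 in mock, 12.18, 12.24 and 11.99 in clone 7, and 11.91, 11.94 and 12.28 in clone 8. All clone arrays were above all mock arrays, by little in clone 8 replicate 1. The difference was 0.29 ± 0.09 (adjusted p = 0.0699) in both clones against mock and -0.27 ± 0.10 (adjusted p = 0.256) in mock against wild-type. FCGRT, the heavy chain of the neonatal Fc receptor, differed by 0.10 ± 0.06 in both clones against mock. RCN3, a calcium-binding protein of the endoplasmic reticulum, differed by 0.03 ± 0.07. PRRG2, a membrane protein with a Gla domain, and FUZ, a planar polarity effector needed for cilia, were the 2 genes with a negative difference (-0.01 ± 0.07 and -0.06 ± 0.05).

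Neither enzyme was called, nor any of the 5 genes of the last group. It holds genes known from muscle, testis or lung together with the nonmuscle myosin gene MYH14. CPT1C, the brain carnitine palmitoyltransferase, differed by 0.08 ± 0.05 in both clones against mock and ASPDH by 0.06 ± 0.09. MYH14, a nonmuscle myosin heavy chain, read 9.11, 8.90 and 8.96 in wild-type cells, 8.93, 8.98 and 9.04 in mock, 9.15, 9.13 and 9.08 in clone 7, and 9.12, 9.07 and 9.28 in clone 8. All 6 clone arrays were above the mock arrays, and the difference was 0.15 ± 0.06 (adjusted p = 0.196). TSKS, a testis protein bound by testis-specific kinases, read 8.21, 8.07 and 8.05 in wild-type cells, 8.17, 8.22 and 8.26 in mock, 8.21, 8.34 and 8.28 in clone 7, and 8.20, 8.09 and 8.29 in clone 8. Of its wild-type arrays, 2 were the lowest of the 12, and it was the gene with the highest positive difference in mock against wild-type among the 28 (0.11 ± 0.07, adjusted p = 0.649).

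In both comparisons with mock, the differences were larger in size among the brighter probe sets. Of the 28 genes, 18 had a mean signal above the median of all genes and 10 below it. The 18 had median differences of -0.20 in mock against wild-type and 0.18 in both clones against mock, and held all 6 calls. The 10 had medians of -0.0007 and 0.06. In the other 2 comparisons the 10 dimmer genes had the larger medians, 0.09 against -0.01 in both clones against wild-type and 0.11 against -0.01 in clone 8 against clone 7. The median deviation of these 10 genes was 0.20, -0.09 and 0.15 on clone 8 replicates 1, 2 and 3. Medians of the 18 and the 10 genes were not taken without single arrays. Of all genes above the median signal, 3.44% were called higher in both clones than in mock, and their median difference was -0.03. Signals of different probe sets depend on their probes and were not read as amounts of transcript. Of the 9 genes nearest to EMC10, 3 (ZNF473, JOSD2 and LRRC4B) were among the 18, so that closeness to EMC10 and dim signal cannot be told apart in them.

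**Figure D3:**
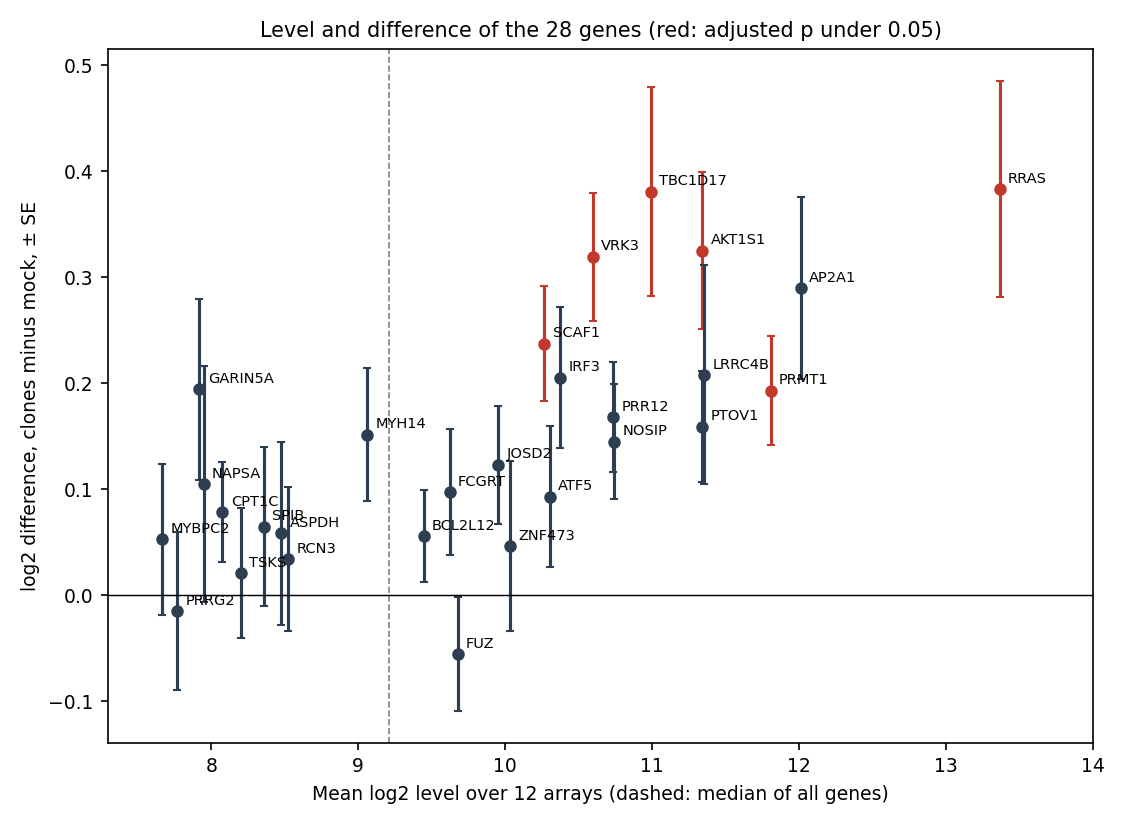
Log2 difference ± SE between both clones and mock (vertical axis) against the mean log2 signal over 12 arrays (horizontal axis) for the 28 genes; the dashed line is the median of all genes (9.21) and red points passed an adjusted p under 0.05. All 6 red points lie to the right of the line, and FUZ and PRRG2 lie below 0.

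Whole groups separated in a number of genes. Every clone array was above every mock array in 11 of 28 genes (5.77% of all genes), namely NOSIP, RRAS, SCAF1, IRF3, PRMT1, AP2A1, PTOV1, AKT1S1, TBC1D17, VRK3 and MYH14. Every mock array was below every wild-type array in 16 of 28 (13.3% of all genes). The mock mean was the lowest of the 4 in 19 of 28 (20.4%). The order of EMC10, with mock below wild-type and wild-type below both clones, held in 7 of 28 (9.76%), CPT1C, AKT1S1, TBC1D17, VRK3, MYH14, GARIN5A and JOSD2.

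Each clone taken alone also had a higher mean than mock in most of the genes. In clone 7 against mock, 23 of 28 genes were above 0 with a median of 0.09, and 1 was called, VRK3 (3.14% of all genes called). In clone 8 against mock, 26 of 28 were above 0 with a median of 0.15, and 4 were called, PRR12, SCAF1, AKT1S1 and VRK3 (5.09%). These counts moved with single arrays, where the share of all genes called was not taken. Without clone 8 replicate 3, 0 genes were called in clone 8 against mock (median 0.11, 26 of 28 above 0) and 6 in clone 7 against mock. Without clone 8 replicate 2 there were 9 and 3, without clone 8 replicate 1 there were 1 and 3, and without clone 7 replicate 3 there were 4 and 5. Without any 1 mock array, 0 genes were called in clone 8 against mock, and in clone 7 against mock VRK3 was called only without mock replicate 1. Without clone 7 replicate 1 or 2, 0 genes were called in clone 7 against mock, and without clone 7 replicate 2 there were 2 in clone 8 against mock. Without a wild-type array, clone 8 against mock had 1 or 2 calls. RRAS differed from mock by 0.47 ± 0.12 in clone 7 (adjusted p = 0.0550) and by 0.30 ± 0.12 in clone 8 (adjusted p = 0.164). Between the clones no gene of the 28 was called, with differences from -0.16 (RRAS) to 0.22 (MYBPC2), a median of 0.04 and 17 of 28 higher in clone 8. Without clone 8 replicate 3 the median was -0.01 and 12 of 28 were higher. Replicates varied more in clone 8, where the median SD of the 28 genes was 0.12, than in the other 3 lines, where it was 0.06 in each. Over all genes, the deviations of replicate 3 of clone 7 and of clone 8 from their group means correlated at -0.83. In EMC10, RRAS, TBC1D17 and AP2A1, replicate 3 of each clone lay nearer replicates 1 and 2 of the other clone. This was not so in PRR12 or BCL2L12. Its cause and its part in the comparison of the clones were not tested.

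**Figure D4:**
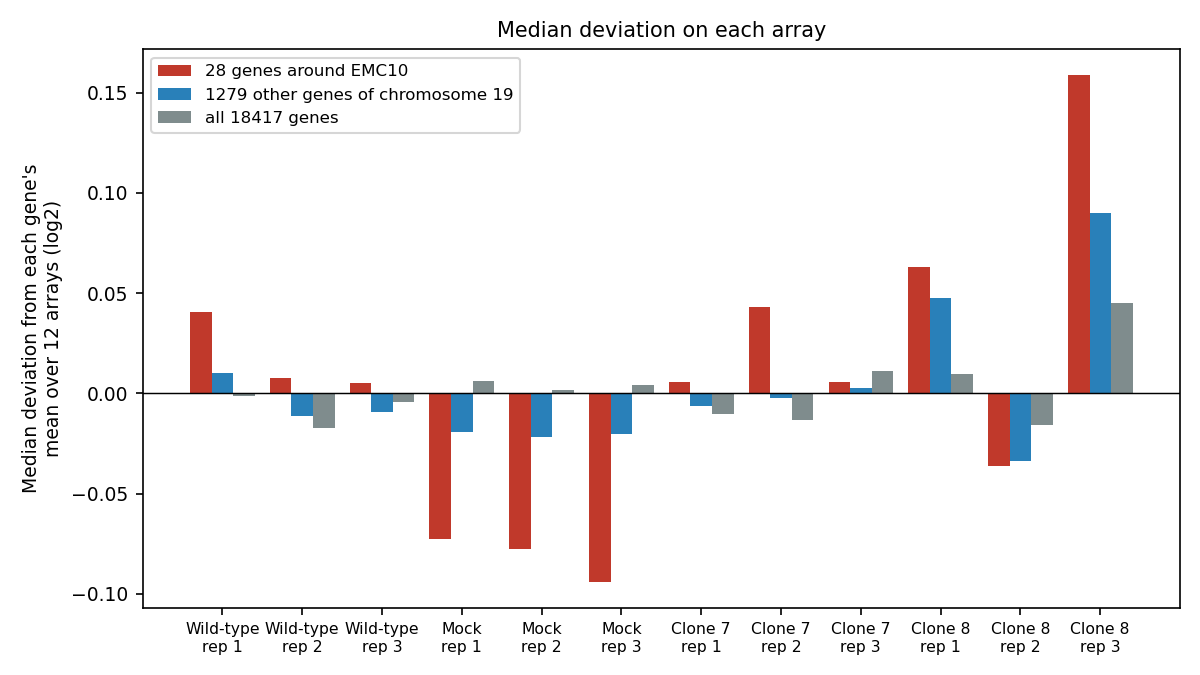
Median deviation (log2, vertical axis) of the 28 genes, of the 1279 other genes of chromosome 19 and of all 18417 genes from each gene's own mean over the 12 arrays, for each array (horizontal axis). The 28 genes were lowest on the 3 mock arrays (-0.07, -0.08 and -0.09), where the other sets stayed within 0.02 of 0, and highest on clone 8 replicate 3 (0.16), where the other sets were raised as well.

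On the mock arrays the pattern was not that of all genes. The median deviation of the 28 genes there was -0.07, -0.08 and -0.09, while the median over all genes was 0.006, 0.002 and 0.004 and that of the other genes of chromosome 19 was -0.02 on each. Below their own mean were 26, 23 and 21 of the 28 genes. On clone 8 replicate 3, 26 of 28 were above their own mean, and on clone 8 replicate 2 only 9. The share of all genes above or below their own mean was not counted, and on clone 8 replicate 3 the median over all genes was itself raised (0.05). Of the other genes of chromosome 19, 75 of 1279 were higher and 21 lower in both clones than in mock by the adjusted p (7.51% in all), and 7 were higher and 40 lower in mock than in wild-type. Unlisted genes with a probe set inside the same stretch numbered 6, with medians of 0.02 in both clones against mock and 0.10 in mock against wild-type and 0 calls.

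Genes related to the flanking genes, such as partners and targets, were counted from lists. Of 7 other genes of mTORC1 and its control, 1 was lower in both clones than in mock, RHEB, the GTPase that activates the complex (log2 -0.43 ± 0.08, limma adjusted p = 0.0092). None of the 4 other AP-2 subunits (median 0.04), of 10 genes of IRF3 signalling and its targets (0.03), of 8 targets of the LXR receptors, to which NR1H2 belongs (0.003), or of 34 large-subunit ribosomal proteins, to which RPL13A belongs (0.001), was called by limma. At an unadjusted p under 0.05 these were 0, 1, 1 and 4 genes. Of 6 other arginine methyltransferases, PRMT2 was higher (0.41 ± 0.10, adjusted p = 0.0265) and the median was -0.04. Of 8 genes listed for ATF5 and the integrated stress response, 2 were higher, SESN2, a sestrin (0.30 ± 0.06), and CHAC1, which degrades glutathione (0.24 ± 0.06), with a median of -0.04.

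Mediator, the complex of MED25, had 26 measured subunits, of which MED29 was higher (0.37 ± 0.06) and MED20 and MED31 lower. Nucleoporins, the family of NUP62, had 9 of 20 lower in both clones than in mock and 0 higher, with a median of -0.24. The lowest was NUP205, a scaffold protein of the pore (log2 -0.43 ± 0.08, adjusted p = 0.0106), and NUP160 (-0.32 ± 0.06) and NUP107 (-0.34 ± 0.08) of the outer ring were also among the 9. None of the genes in these lists of related genes differed by 1.5-fold with an adjusted p under 0.05. All these counts stand beside 6.38% of all genes called in that comparison.

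Copy number and the site of the vector were not analysed here.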

How the data were processed

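RNA of 12 A172 cultures was measured on GeneChip Human Gene 1.0 ST arrays. The authors deposited log2 values for 33297 probe sets, already normalized. Partek is named in the submitters' processing notes; how probes were summarized and arrays normalized is not stated in those notes or the methods. Arrays have no read depth, and their number (3 per group) limits the precision. Probe sets with a single symbol (19460) were used, and for 769 genes with several the one of highest mean was kept. A linear model over the 4 groups and all 12 arrays was fitted with limma 3.58.1 (lmFit, eBayes) in R 4.3.3, with Benjamini-Hochberg adjustment over 18417 genes. It was tested on simulated data first. RefSeq (GRCh38.p14) gave names, gene order and promoter windows. Alternatives were quantile normalization, centring, leaving out dim genes (below the 0.25 quantile), mean probe sets, a replicate block, a trend and robust variance, fewer arrays, a limit of unadjusted p under 0.001 with 1.3-fold, and leaving out each array. All 28 measured genes were to be named, with array values for EMC10, its nearest neighbours, the called genes and the 5 of largest difference per comparison. SCAF1 and PRMT1 were given because they were called. The flanking genes and all lists were chosen with earlier results of these data known, and the values are not independent support for a pattern seen there.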

Additional observations from a re-analysis of the deposited data

How the results depend on the processing

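In mock against wild-type, both clones against mock or wild-type, and clone 8 against clone 7, no flanking gene passed both limits under any alternative. These included the limit of unadjusted p under 0.001 with 1.3-fold. For each clone alone against mock, both limits were not counted without single arrays, and a pass there is not excluded. Without clone 7 replicate 3, RRAS was called in clone 7 against mock, with clone arrays of 13.63 and 13.69 against 13.14, 13.06 and 12.99 in mock. Counts by the adjusted p moved more. The share of all genes called was taken for the reported fit only, so the counts under alternatives are not a result about the flanking genes. In both clones against mock (6 genes) they were 10 after quantile normalization, 7 with a trend and robust variance, 2 with the replicate block, 1 with only the arrays compared, and from 0 to 8 when an array was left out. In mock against wild-type (1 gene) they were 2 after quantile normalization, 0 with the replicate block, 11 with only the arrays compared, and from 0 to 4 when an array was left out. In both clones against wild-type (0 genes) they were 1 after quantile normalization and from 0 to 1 when an array was left out. Clone 8 against clone 7 stayed at 0. When an array was left out, which was added for these 2 comparisons after seeing the data, clone 7 against mock (1 gene) ranged from 0 to 6 and clone 8 against mock (4 genes) from 0 to 9. Each call in a comparison of clones with mock was higher and each in mock against wild-type lower. The cause of these moves was not tested. With only the arrays compared or with 1 array less, the spread is estimated from fewer and other arrays. For mock against wild-type with only the arrays compared, the clone arrays no longer enter the estimate. Replicate numbers did not pair the cultures: of 18 same-numbered pairs, deviations correlated between -0.83 and 0.45 and 4 were over 0.1, so that the block is no paired analysis. The value of -0.83 was that of clone 7 replicate 3 with clone 8 replicate 3, and the next lowest was -0.385, for replicate 1 of the same clones. Dim signals, as in MYBPC2 and PRRG2, which the filter on dim genes removed, could not be told from background.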

Other observations

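The probe set shared by RPL13A, a large-subunit ribosomal protein, and its copies RPL13AP5, RPL13AP3 and RPL13AP20 had log2 levels of 13.73 ± 0.04 (SD, n = 3) in wild-type cells, 13.69 ± 0.04 in mock, 13.85 ± 0.02 in clone 7 and 13.84 ± 0.05 in clone 8. Its clone arrays, from 13.79 to 13.88, lay above its mock arrays, from 13.64 to 13.72. The probe set shared by IL4I1, an amino acid oxidase, and NUP62, a nucleoporin, had levels of 9.80 ± 0.02 in wild-type cells, 9.79 ± 0.07 in mock, 9.84 ± 0.04 in clone 7 and 9.80 ± 0.11 in clone 8, and the groups overlapped. Neither can be given to 1 gene, and neither was tested.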
